A study of Mus musculus with 52 samples.

Results

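The genes described here are 32 named genes of glucose uptake, glycolysis, lactate formation and export, the hypoxia-inducible factor HIF-1 and its targets, and the pentose phosphate pathway. They were taken from the table by symbol and were followed across all 13 groups of a mouse dendritic cell series. Of the 32 symbols, 31 had a row in the deposited table, among 23135 gene rows in all. Aldoa was not analysed here. After the filter on low counts 19 of the genes were tested at 4 h, 19 at 24 h and 19 between the times, 20 of them in at least 1 fit. A gene was called when edgeR's quasi-likelihood test gave a Benjamini-Hochberg adjusted p of at most 0.05 over all genes tested, and 17 were called in at least 1 of 16 comparisons.

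The cells were CD103+ type 1 conventional dendritic cells (cDC1) sorted on CD103 from C57BL/6 bone marrow cultures that held GM-CSF and FLT3 ligand. The 4 h groups comprised untreated cells, cells given prostaglandin E2 (PGE2) at 100 ng/ml, and cells given conditioned medium (CM) of BRAFV600E melanoma cells, either control or Ptgs1/Ptgs2-/-, which lack the cyclooxygenases that start prostaglandin synthesis. In 5 further groups at 4 h, cells were exposed for 30 min to PGE2 receptor antagonists at 5 uM before PGE2: SC-19220 for EP1, PF-04418948 for EP2, L-826,266 for EP3, L161,982 for EP4, and a group titled EP2 and EP4 antagonists. The treatment entry of that last group lists SC-19220 with L161,982, that is, the compound of the EP1 group in place of that of the EP2 group, so it is called here the group labelled EP2 and EP4. Those of 24 h comprised untreated cells, PGE2 at 100 ng/ml, poly I:C (a double-stranded RNA analog that is sensed by TLR3) at 10 ug/ml for 4 h, and PGE2 for 24 h with poly I:C for 4 h. The titles do not say whether the 4 h of poly I:C fell within the 24 h or came after it. Equal culture time in the 24 h groups is therefore not established. Each group held 4 libraries, lettered A to D as biological replicates of all 13 groups. All groups shared the strain, the growth factors and the sort. The labels name no vehicle for untreated cells and no separate animals behind the letters, so p-values measure the spread between these libraries.

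Glycolysis splits glucose into pyruvate, which lactate dehydrogenase can turn into lactate for export, and the pentose phosphate pathway branches off after the first step to make NADPH and ribose phosphate. HIF-1 is a transcription factor, stabilised when oxygen is low and also in activated immune cells, that switches on many glycolytic genes. Activated dendritic cells are known to raise glucose use soon after a Toll-like receptor signal. PGE2 acts through the receptors EP1 to EP4, of which EP2 and EP4 raise cyclic AMP.

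The promoters below are shown because the results turn on these genes. Pgd, G6pdx and Taldo1 of the pentose phosphate pathway were called together after PGE2 at 4 h and after poly I:C. The Taldo1 call with poly I:C was lost in DESeq2 and reversed with libraries scaled by their totals alone. That of G6pdx after PGE2 was lost without some single libraries. Slc2a6 had the largest fitted rise of the 20 genes tested, and Ldha was called in 6 comparisons. Each runs from 250 bases before to 50 bases after an annotated transcript start, 5′ to 3′ on the gene's strand, from RefSeq on GRCm38.p6. Capitals mark any match, on either strand, to ACGTG or GCGTG (2 forms of the hypoxia response element core), TGACGTCA (the cyclic AMP response element), TGACNNNGC (the antioxidant response element core) or the interferon-stimulated response element. The intervals are chr4:149166656-149166955, minus strand for Pgd, chrX:74428831-74429130, minus strand for G6pdx, chr7:141391910-141392209, plus strand for Taldo1, chr2:27027949-27028248, minus strand for Slc2a6 and chr7:46845554-46845853, plus strand for Ldha.
Pgd: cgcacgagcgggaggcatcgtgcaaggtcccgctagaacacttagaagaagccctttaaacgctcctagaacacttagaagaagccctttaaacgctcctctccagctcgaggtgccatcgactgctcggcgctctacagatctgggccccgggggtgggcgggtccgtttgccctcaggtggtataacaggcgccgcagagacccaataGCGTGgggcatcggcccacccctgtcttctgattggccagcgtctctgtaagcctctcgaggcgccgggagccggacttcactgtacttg
G6pdx: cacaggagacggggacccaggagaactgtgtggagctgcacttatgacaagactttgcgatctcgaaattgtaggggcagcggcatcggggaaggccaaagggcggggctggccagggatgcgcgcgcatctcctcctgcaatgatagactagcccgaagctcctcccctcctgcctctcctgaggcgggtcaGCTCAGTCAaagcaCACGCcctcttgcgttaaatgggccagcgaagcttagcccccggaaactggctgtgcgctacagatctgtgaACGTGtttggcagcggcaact
Taldo1: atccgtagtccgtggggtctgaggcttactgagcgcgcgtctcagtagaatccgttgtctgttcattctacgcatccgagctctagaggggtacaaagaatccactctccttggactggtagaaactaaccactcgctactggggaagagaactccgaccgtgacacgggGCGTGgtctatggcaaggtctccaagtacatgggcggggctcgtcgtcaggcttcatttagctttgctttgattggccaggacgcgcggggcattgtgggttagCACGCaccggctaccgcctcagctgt
Slc2a6: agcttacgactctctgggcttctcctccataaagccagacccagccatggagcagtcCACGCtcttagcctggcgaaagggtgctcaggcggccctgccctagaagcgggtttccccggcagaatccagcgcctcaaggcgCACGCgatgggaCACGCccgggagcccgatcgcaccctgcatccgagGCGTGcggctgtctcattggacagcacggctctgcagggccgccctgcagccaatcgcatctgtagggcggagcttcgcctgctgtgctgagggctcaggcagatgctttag
Ldha: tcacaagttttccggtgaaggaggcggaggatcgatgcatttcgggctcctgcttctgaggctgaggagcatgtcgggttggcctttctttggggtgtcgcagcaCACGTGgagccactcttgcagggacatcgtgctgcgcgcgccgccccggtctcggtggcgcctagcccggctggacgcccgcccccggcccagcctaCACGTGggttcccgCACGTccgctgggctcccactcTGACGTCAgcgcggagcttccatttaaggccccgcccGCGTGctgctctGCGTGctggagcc
In these windows Slc2a6 held GCGTG 4 times and Taldo1 held it 2 times. The Ldha window held ACGTG 5 times, with both strands of each CACGTG counted, GCGTG 2 times and TGACGTCA 1 time. G6pdx held 1 match to ACGTG, 1 match to GCGTG and 1 match to TGACNNNGC, and Pgd held GCGTG 1 time. Pgd and Ldha each had 2 promoter rows, of which 1 is shown. The other Pgd row held TGACNNNGC 1 time and no GCGTG. The other Ldha row held GCGTG 2 times and neither ACGTG nor TGACGTCA. Promoter rows were found for 31 of the 32 genes, 45 rows in all, of which 51.1% held ACGTG and 55.6% GCGTG, against 19.6% and 32.4% of all 32851 mouse promoter rows of the same length. TGACGTCA was in 2.22% of the 45 rows and 1.79% of all rows, TGACNNNGC in 13.3% and 12.4%, and the interferon-stimulated response element in 2.22% and 3.44%. The shares describe letters only.

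The values are counts of unique molecular identifiers at transcript 3′ ends, printed as CPM, counts scaled to a common library size, after 1 TMM scaling over the 52 libraries, so levels are compared between groups and not between genes. The fits scale libraries separately within each time, by TMM on the counts of the genes tested, so a fitted fold change can differ from the ratio of printed levels. The shift was -0.11 on the log2 scale for poly I:C against untreated cells and -0.14 for PGE2 with poly I:C against PGE2, and at most 0.033 in size in the other comparisons. Library totals in a fit are likewise totals over the genes tested. Full totals ran from 42666 to 438491 counts per library with a median of 295484.5, and the 2 lowest were PGE2 + EP4 antagonist A and untreated 4 h A (54107), where a gene with no count could still be present at up to 70.3 and 55.4 CPM (3 counts of the total, counting error only). All 13 cDC1 markers had counts, and their summed level was between 5571 CPM in the poly I:C group and 11272 CPM in the control CM group. Irf8 and Plet1 were the largest parts of that sum, at 3218 and 3145 CPM on average over the 52 libraries. Xcr1 averaged 165 CPM and Clec9a 32.5 CPM. Of 8 cDC2 markers all had a row, with a sum of 88.7 ± 19.6 CPM in untreated cells at 24 h, 198 ± 27.0 with PGE2 and 17.7 ± 7.55 with poly I:C. Of 12 macrophage and monocyte markers 11 had a row, with sums of 1399.8 ± 179, 1867 ± 145 and 637 ± 83.6 CPM in the same groups, most of it Lyz2 (1033 ± 155 CPM in untreated cells and 519 ± 90.7 with poly I:C) and Csf1r (236 ± 37.8 and 22.0 ± 7.89), while Mertk had group means of at most 0.821 CPM. The 7 plasmacytoid markers summed to 134 ± 26.1 CPM in untreated cells at 24 h and 699 ± 88.5 with poly I:C, most of it Bst2 (607 ± 104 CPM), while Siglech had group means of at most 18.2 CPM and Klk1 was at 0 in every library. Granulocyte, lymphocyte and melanoma lists summed to at most 25.0 CPM in any library. The part of other cells in the results was not tested. In bulk libraries a change in the share of a cell type and a change in RNA per cell cannot be told apart.

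PGE2 for 4 h raised 5 of the 19 tested genes and lowered none: Pgd, G6pdx and Taldo1 of the pentose phosphate pathway, and Ldha and Slc16a3, which make and export lactate. Over all 5754 genes tested 8.57% were called, 5.21% higher and 3.35% lower. The median log2 fold change was 0.26 over the 19 genes and -0.01 over all genes. The 4 pentose phosphate genes summed to 885 ± 166 CPM in untreated cells and 1370.4 ± 74.4 CPM with PGE2 (mean ± SD, n = 4), and no test was made on the sum. On library totals the calls over all genes went from 300 higher and 193 lower to 237 and 332.

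Pgd (phosphogluconate dehydrogenase, chr4:149149991-149166771, minus strand) makes the second NADPH of the oxidative branch. Its levels in untreated libraries A to D were 60.3, 77.1, 82.8 and 68.7 CPM, and in the PGE2 libraries 184, 218, 199 and 217 CPM. Every PGE2 library lay above every untreated one. Pgd rose by 1.43 ± 0.23 on the log2 scale (SE; adjusted p = 1.33e-07), a 2.70-fold difference. G6pdx (glucose-6-phosphate dehydrogenase, chrX:74409483-74429194, minus strand) is the entry enzyme of the pathway. It was at 15.1, 36.9, 17.1 and 34.3 CPM in untreated and 123, 61.1, 77.9 and 33.3 CPM in PGE2 libraries. The value of untreated A lies below the 55.4 CPM that 3 counts make in that shallow library (54107 counts). PGE2 library D lay within the untreated range, and the other PGE2 libraries above it. G6pdx rose by 1.38 ± 0.41 on the log2 scale (SE; adjusted p = 0.0205), and the adjusted p passed 0.05 without untreated 4 h A (0.0502) or C (0.131) or without PGE2 4 h A (0.13) or C (0.0747).

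Taldo1 (transaldolase, chr7:141392199-141402968, plus strand) belongs to the non-oxidative branch that links back to glycolysis. It was at 422, 680.4, 574 and 692 CPM in untreated and 914, 809.8, 909 and 978 CPM in PGE2 libraries, with no overlap. Taldo1 rose by 0.53 ± 0.13 on the log2 scale (SE; adjusted p = 0.00139). For Pgd and Taldo1 the call held under every alternative run for this comparison. Tkt (transketolase), the other non-oxidative enzyme, was not called, at 195 ± 31.2 CPM in untreated and 189.6 ± 20.04 CPM in PGE2 libraries, with a log2 fold change of -0.08 ± 0.19 (adjusted p = 0.885) and a 95% interval of -0.46 to 0.29.

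**Figure D1:**
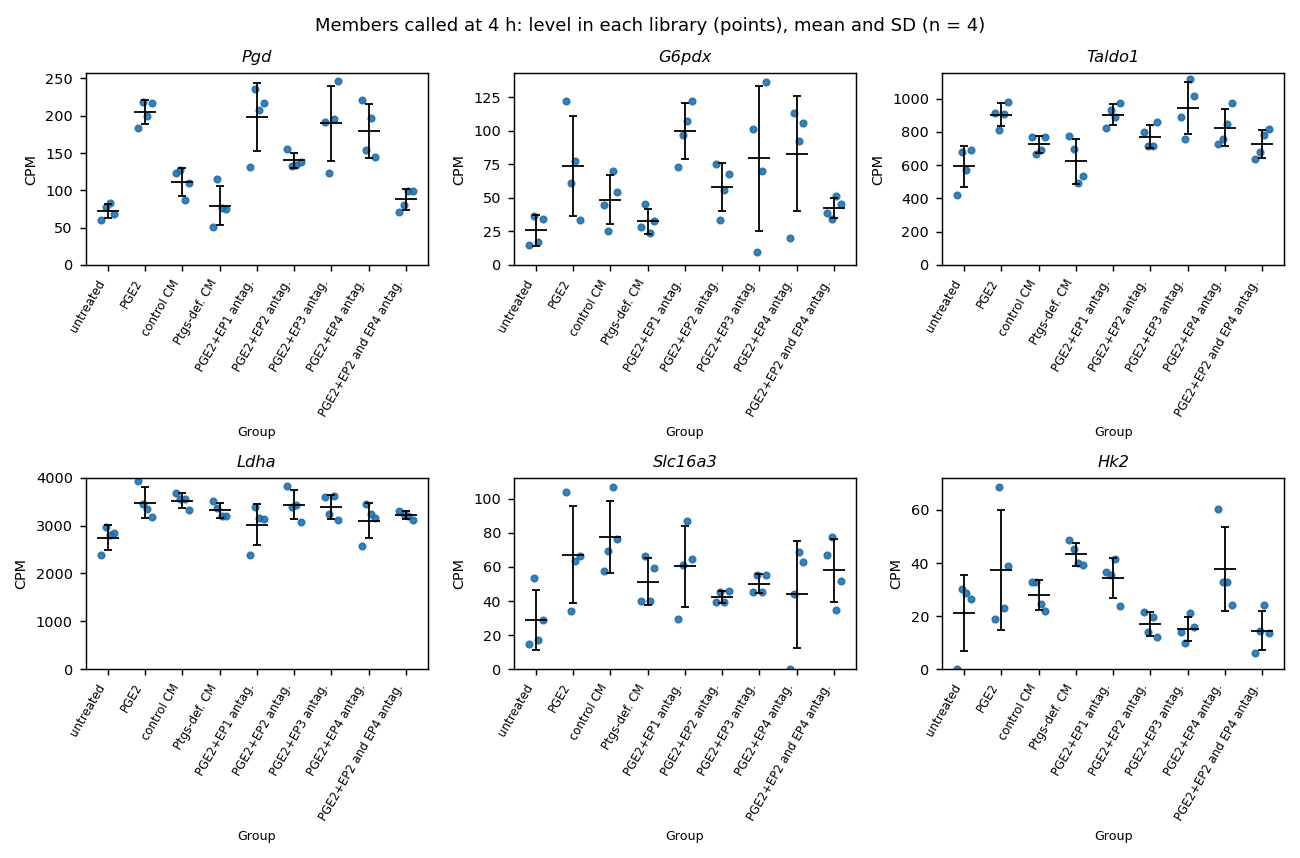
Level (CPM, linear axis from 0) of 6 genes in each of the 4 libraries of the 9 groups at 4 h, with a bar at the mean and whiskers of 1 SD. Labels such as PGE2+EP1 antag. stand for PGE2 with that antagonist. Pgd sits between 184 and 218 CPM in the PGE2 libraries and between 71.1 and 99.7 CPM in the group labelled EP2 and EP4, while the scatter of G6pdx, Slc16a3 and Hk2 is wide in several groups.

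Ldha (lactate dehydrogenase A, chr7:46841475-46855627, plus strand) turns pyruvate into lactate. Its untreated levels were 2383, 2969, 2799 and 2843 CPM and its PGE2 levels 3926, 3461, 3351 and 3183 CPM. The groups did not overlap, but the change was small: Ldha rose by 0.32 ± 0.11 on the log2 scale (SE; adjusted p = 0.0373). The adjusted p passed 0.05 on library totals (0.237 at a log2 value of 0.18), with no filter on low counts (0.202), without the 2 libraries of lowest total (0.0849), without untreated 4 h A (0.13), C (0.081) or D (0.0673) or without PGE2 4 h A (0.196), B (0.0605) or C (0.0669). Slc16a3 (the lactate exporter MCT4, chr11:120948480-120960868, plus strand) was at 15.1, 53.6, 17.1 and 29.1 CPM in untreated and 104, 34.4, 63.5 and 66.6 CPM in PGE2 libraries, which overlapped through PGE2 B and untreated B. Its value in untreated A is again below the level of 3 counts in that library (55.4 CPM). Slc16a3 rose by 1.06 ± 0.36 on the log2 scale (SE; adjusted p = 0.0415). That call was lost in DESeq2 (0.0636), on library totals (0.082), with no filter on low counts (0.117), with only the groups compared in the fit (0.0532), without the 2 libraries of lowest total (0.0593), without untreated 4 h A (0.0704), C (0.257) or D (0.12) or without PGE2 4 h A (0.257), C (0.0806) or D (0.0663).

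The remaining 14 tested genes were not called after 4 h of PGE2. Among the transporters, Slc2a1 (GLUT1) had a log2 fold change of 0.32 ± 0.43 (adjusted p = 0.775) and Slc2a6 (GLUT6) of 0.26 ± 0.34 (adjusted p = 0.765). In upper glycolysis, Pfkl, the liver-type phosphofructokinase, was at 38.0 ± 9.28 CPM untreated and 17.5 ± 14.6 CPM with PGE2, a log2 value of -1.21 ± 0.46 (adjusted p = 0.0827). With libraries scaled by their totals alone Pfkl was called at -1.34 (adjusted p = 0.0424), and the higher and lower calls were then 3 and 1 in place of 5 and 0. That scaling moved the median of all genes in this comparison from -0.01 to -0.13. Pkm, the pyruvate kinase of most tissues, was at 0.30 ± 0.12 (adjusted p = 0.128), and Hif1a, the oxygen-regulated subunit of HIF-1, at -0.16 ± 0.30 (adjusted p = 0.849).

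The melanoma media differ in whether the tumour cells had cyclooxygenases. Against untreated cells, control CM raised 2 of the 19 genes, Slc16a3 and Ldha, and lowered none, where 7.56% of all genes were called. Control CM against Ptgs-deficient CM gave no call among the 19 by edgeR, with 2 genes at an unadjusted p of at most 0.05 and 0 calls in DESeq2, where 3.95% of all genes were called. Ptgs-deficient CM against untreated cells also gave 0 calls by edgeR, with 2 genes at an unadjusted p of at most 0.05 and 0 in DESeq2, where 0.0869% of all genes were called.

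Slc16a3 stood at 57.4, 69.4, 107 and 76.4 CPM in the control CM libraries and 39.96, 66.6, 39.97 and 59.1 CPM in the Ptgs-deficient ones. All control CM libraries lay above every untreated library, and the 2 media overlapped. Slc16a3 rose by 1.30 ± 0.34 on the log2 scale (SE; adjusted p = 0.00454) with control CM. That call was lost without untreated 4 h C (0.0781). With Ptgs-deficient CM its log2 value was 0.72 ± 0.36 (adjusted p = 0.777), and between the media 0.58 ± 0.30 (adjusted p = 0.385). Ldha was at 3676, 3546, 3549 and 3317 CPM with control CM and 3508, 3357, 3209 and 3190.3 CPM with Ptgs-deficient CM. Both media lay above the untreated range and overlapped each other. Ldha rose by 0.34 ± 0.10 on the log2 scale (SE; adjusted p = 0.0229) with control CM, a call that was lost on library totals (0.106), with no filter on low counts (0.181), without the 2 libraries of lowest total (0.059), without untreated 4 h A (0.0951) or C (0.0573) or without control CM 4 h A (0.0749), B (0.0566) or C (0.0525). Its value with Ptgs-deficient CM was 0.25 ± 0.10 (adjusted p = 0.589).

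Pgd was at 123, 128, 86.5 and 109 CPM with control CM and 51.4, 115, 75.9 and 75.6 CPM with Ptgs-deficient CM. The control CM libraries lay above every untreated library but below every PGE2 library. Neither difference was called: the log2 value was 0.57 ± 0.24 (adjusted p = 0.151) against untreated cells and 0.49 ± 0.23 (adjusted p = 0.308) between the media. Between the media G6pdx was at 0.56 ± 0.41 (adjusted p = 0.643) and Taldo1 at 0.21 ± 0.13 (adjusted p = 0.509), neither of them called. The same untreated libraries serve in the PGE2 and the CM comparisons, so these values are set side by side and not counted as separate evidence.

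Among cells given PGE2, single receptor antagonists gave no call among the 19 genes. By edgeR the EP1, EP2, EP3 and EP4 antagonists had 0 called genes each, with 1, 3, 1 and 0 at an unadjusted p of at most 0.05, and DESeq2 called 0 in each. Over all genes the calls were 0% with the EP1 antagonist, 0.417% with EP2, 0.0695% with EP3 and 0.0348% with EP4. The group labelled EP2 and EP4 had 2 of the 19 genes lower, Pgd and Hk2, and none higher, where 9.52% of all genes were called. The median log2 fold change there was -0.14 over the 19 genes and 0.01 over all genes.

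Pgd in that group was at 71.1, 80.7, 99.7 and 99.5 CPM. Every library lay below every PGE2 library, and their range overlapped that of untreated cells. Pgd fell by 1.22 ± 0.20 on the log2 scale (SE; adjusted p = 7.74e-07) against PGE2 alone, and the call held under every alternative. With the EP2 antagonist alone Pgd was at 155, 133, 135 and 138 CPM. Those libraries lay between the untreated and the PGE2 ranges, but the log2 value of -0.55 ± 0.19 (adjusted p = 0.247) was not called. Under the EP1, EP3 and EP4 antagonists its mean was 198 ± 45.8, 189.6 ± 50.9 and 179 ± 36.4 CPM, each overlapping PGE2 alone. The corresponding log2 values were 0.02 ± 0.19 (adjusted p = 0.996), -0.10 ± 0.19 (adjusted p = 0.948) and -0.24 ± 0.21 (adjusted p = 0.953). All antagonist groups were compared with the same PGE2 libraries, and whether they differ from each other was not tested.

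The other pentose phosphate genes called after PGE2 were also lower on average in the group labelled EP2 and EP4, without passing the test. G6pdx was at 38.6, 34.6, 51.2 and 45.2 CPM, a log2 value of -0.81 ± 0.35 (adjusted p = 0.157) against PGE2. Taldo1 was at 636, 677, 781 and 817 CPM, a value of -0.31 ± 0.12 (adjusted p = 0.1). Both ranges overlapped those of PGE2 alone for the lowest PGE2 library. The lactate genes were not called: Ldha was at -0.11 ± 0.10 (adjusted p = 0.594) and Slc16a3 at -0.17 ± 0.30 (adjusted p = 0.812).

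Hk2 (hexokinase 2, chr6:82725025-82774454, minus strand) traps glucose as glucose-6-phosphate. It was at 18.9, 68.8, 23.1 and 38.9 CPM with PGE2 and 6.10, 14.4, 24.3 and 13.6 CPM in the group labelled EP2 and EP4. PGE2 libraries A and C lay within the range of the antagonist group. Hk2 fell by 1.37 ± 0.44 on the log2 scale (SE; adjusted p = 0.028), and the call was lost with no filter on low counts (0.113), without PGE2 4 h B (0.355 at a log2 value of -0.88) or D (0.0506) or without PGE2 + EP2 and EP4 antagonists 4 h A (0.142) or D (0.0547). With the EP2 and EP3 antagonists Hk2 averaged 16.9 ± 4.51 and 15.2 ± 4.67 CPM, at log2 values of -1.16 ± 0.45 (adjusted p = 0.321) and -1.29 ± 0.45 (adjusted p = 0.281). In untreated cells it was at 0, 30.2, 28.6 and 26.4 CPM, the first of which is 0 counts in the second shallowest library of the series, so Hk2 was not detectable there at that depth.

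After 24 h of PGE2 the pentose phosphate and lactate genes were not called, and 2 other genes of the 19 were: Eno1 was higher and Pfkp lower, where 7.97% of all 5273 genes tested were called. Eno1 (enolase 1, chr4:150236721-150248879, plus strand), which makes phosphoenolpyruvate, was at 80.6, 113, 81.7 and 59.1 CPM in untreated and 155, 164, 110.3 and 135 CPM in PGE2 libraries. Only PGE2 C lay within the untreated range. Eno1 rose by 0.79 ± 0.22 on the log2 scale (SE; adjusted p = 0.00784), and the call was lost with no filter on low counts (0.0558), without untreated 24 h D (0.0546) or without PGE2 24 h B (0.0555). Pfkp (platelet-type phosphofructokinase, chr13:6579768-6648777, minus strand), which commits sugar to glycolysis, was at 148, 124, 211 and 160.8 CPM and 86.0, 108, 94.9 and 96.5 CPM. The groups did not overlap. Pfkp fell by 0.70 ± 0.18 on the log2 scale (SE; adjusted p = 0.00496), a call lost without untreated 24 h C (0.0826).

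Pgd at 24 h was at 51.0, 76.1, 84.5 and 52.5 CPM in untreated and 49.9, 83.3, 107 and 106 CPM in PGE2 libraries, which overlapped. Its log2 value was 0.38 ± 0.23 (adjusted p = 0.388), and the difference from the effect at 4 h was -1.07 ± 0.34 (adjusted p = 0.0458), where 4.35% of all genes tested were called. This was the 1 call of the 19 genes for that difference, and it was lost in DESeq2 (0.0738), on library totals (0.09), with no filter on low counts (0.138), without untreated 4 h B (0.0627) or D (0.0918), without PGE2 4 h B (0.0783), C (0.0608) or D (0.0635), without untreated 24 h B (0.103) or C (0.144) or without PGE2 24 h A (0.166) or B (0.0732). For G6pdx and Taldo1 the differences were -1.46 ± 0.54 (adjusted p = 0.112) and -0.42 ± 0.16 (adjusted p = 0.132), and for Ldha -0.26 ± 0.12 (adjusted p = 0.271). Between untreated cells at 24 h and at 4 h, 1 of the 19 genes was called, Ldha, where 4.33% of all genes were. Ldha was at 3482, 3559, 3432 and 3403 CPM at 24 h, above all untreated libraries at 4 h, and rose by 0.30 ± 0.09 on the log2 scale (SE; adjusted p = 0.0231). That call was lost with no filter on low counts (0.112), without untreated 4 h C (0.0745) or without untreated 24 h A (0.0547), B (0.0919) or C (0.0638). The 2 times also differ in culture time, and the labels do not say whether they were prepared together.

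With poly I:C, 15 of the 19 genes tested (78.9%) were called against untreated cells at 24 h, 10 higher and 5 lower. The rise took in the transporter Slc2a6, the kinases Pfkp, Pfkfb3 and Hk2, Hif1a with its target P4ha1, Pkm, and Pgd, G6pdx and Taldo1 of the pentose phosphate pathway. Gpi1, Tpi1, Ldha, Tkt and Bnip3 were lower. In this comparison 65% of all genes were called, so most genes of any kind were, 31.3% higher and 33.7% lower. The median log2 fold change was 0.35 over the 19 genes and -0.10 over all.

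The size of these changes depends on how libraries are scaled. In the scaling over all 52 libraries, used for the printed levels, TMM factors were 0.616 to 0.634 with poly I:C and 1.10 to 1.13 in untreated cells at 24 h. The fit at 24 h had its own factors, which are not given here. The 20 most abundant genes took 33.3% of counts with poly I:C against 26.5% in untreated cells at 24 h. On library totals alone the median of all genes moved from -0.10 to -0.87, calls over all genes went from 1651 higher and 1777 lower to 975 and 3087, and calls among the 19 genes from 10 and 5 to 5 and 9. The genes that were called higher on both scales were Slc2a6, Pgd, Pfkfb3, Pfkp and G6pdx, and those lower on both were Bnip3, Tpi1, Tkt, Gpi1 and Ldha. On the scale of the printed levels, an alternative chosen after seeing the data, Gpi1, Ldha and Tkt were not called, and the calls among the 19 genes were 10 higher and 2 lower. Together the 31 genes with a row took 0.698% ± 0.0130 of all counts in untreated cells at 24 h and 0.587% ± 0.0198 with poly I:C.

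**Figure D2:**
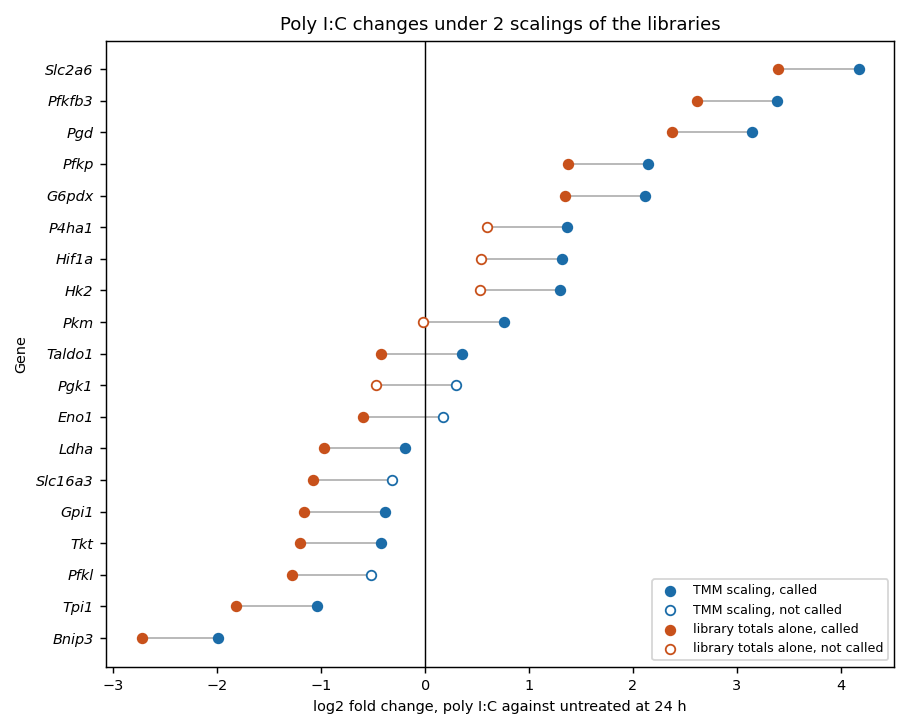
Fitted log2 fold change of the 19 genes tested at 24 h, poly I:C against untreated cells, with TMM scaling and with library totals alone. Filled points have an adjusted p of at most 0.05. Slc2a6 stays highest on both scales (4.17 and 3.40), while Taldo1 changes side (0.35 and -0.43) and Pkm goes from 0.75 to near 0 (-0.023).

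Slc2a6 (GLUT6, chr2:27021363-27027998, minus strand), a hexose transporter of intracellular membranes, was at 53.7, 47.9, 31.0 and 49.2 CPM in untreated and 923, 869, 794 and 980.4 CPM in poly I:C libraries. The lowest poly I:C library was far above the highest untreated one. Slc2a6 rose by 4.17 ± 0.17 on the log2 scale (SE; adjusted p = 2.08e-57), an 18.01-fold difference, and on library totals the log2 value was 3.40 (adjusted p = 9.33e-46). The other tested transporter, Slc2a1, did not pass the filter at 24 h.

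Pfkfb3 (chr2:11471433-11554077, minus strand) makes fructose-2,6-bisphosphate, the activator of phosphofructokinase. It was at 34.9, 11.3, 19.7 and 59.1 CPM in untreated and 377, 259.6, 413 and 337 CPM in poly I:C libraries, without overlap. Pfkfb3 rose by 3.39 ± 0.23 on the log2 scale (SE; adjusted p = 2.30e-31), and was at 2.62 (adjusted p = 3.59e-21) on library totals. Pfkp was at 819, 779, 769.9 and 720.5 CPM with poly I:C, above all untreated libraries. Pfkp rose by 2.15 ± 0.14 on the log2 scale (SE; adjusted p = 3.26e-32), with 1.37 (adjusted p = 1.02e-16) on library totals. Pfkl, a second phosphofructokinase subunit, was not called, at -0.52 ± 0.53 (adjusted p = 0.397), but was at -1.28 (adjusted p = 0.0219) on library totals.

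Hk2 was at 29.6, 11.3, 39.4 and 39.4 CPM in untreated and 139, 90.3, 57.0 and 41.0 CPM in poly I:C libraries, with poly I:C D closest to the untreated range. Hk2 rose by 1.30 ± 0.36 on the log2 scale (SE; adjusted p = 0.000852), and the call was lost on library totals (0.17 at a log2 value of 0.53). Gpi1 (glucose-6-phosphate isomerase), the step after hexokinase, was at 304, 451, 403 and 449.6 CPM and 325, 282, 389.7 and 319 CPM, which overlapped. Gpi1 fell by 0.39 ± 0.15 on the log2 scale (SE; adjusted p = 0.0155). The call was lost on the scale of the printed levels (0.0907), with no filter on low counts (0.0556), without untreated 24 h B (0.0673) or D (0.0615) or without poly I:C 24 h A (0.0603), B (0.075) or D (0.062), while on library totals it was at -1.16 (adjusted p = 4.47e-13).

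Below the split of the sugar, the genes tested did not move together. Tpi1 (triosephosphate isomerase, chr6:124810586-124814296, minus strand) was at 124, 183, 127 and 131 CPM in untreated and 75.5, 129.8, 52.3 and 45.6 CPM in poly I:C libraries, where poly I:C B lay within the untreated range. Tpi1 fell by 1.04 ± 0.25 on the log2 scale (SE; adjusted p = 0.000161), and was at -1.82 (adjusted p = 2.80e-11) on library totals. Pkm (chr9:59656368-59679375, plus strand) was at 763, 755, 755 and 620.3 CPM and 1231, 1281, 1345 and 1418 CPM, with no overlap on the TMM scale. Pkm rose by 0.75 ± 0.10 on the log2 scale (SE; adjusted p = 3.90e-11), but the fitted value on library totals was -0.023 (adjusted p = 0.843). As a share of all counts it was at 805 ± 71.3 CPM in untreated cells and 825 ± 42.4 with poly I:C, so a rise was not seen on that scale. Eno1 was not called at 0.17 ± 0.25 (adjusted p = 0.553), and on library totals had the opposite sign at -0.60 (adjusted p = 0.0216). Pgk1, the phosphoglycerate kinase, was not called at 0.30 ± 0.36 (adjusted p = 0.474), or on library totals at -0.47 (adjusted p = 0.223), again with the opposite sign.

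Ldha was at 3482, 3559, 3432 and 3403 CPM in untreated and 3100.3, 3426, 3004 and 3516 CPM in poly I:C libraries, which overlapped. Ldha fell by 0.20 ± 0.08 on the log2 scale (SE; adjusted p = 0.0234). This call was lost on the scale of the printed levels (0.326 at a log2 value of -0.09), with no filter on low counts (0.151), without untreated 24 h B (0.0617) or without poly I:C 24 h A (0.192 at a log2 value of -0.13) or C (0.199 at a log2 value of -0.13), and on library totals the value was -0.98 (adjusted p = 1.24e-26). Slc16a3 was not called at -0.32 ± 0.51 (adjusted p = 0.592), and on library totals was at -1.08 (adjusted p = 0.0423).

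Pgd and G6pdx of the oxidative pentose phosphate branch were higher with poly I:C on both scales. Pgls, the lactonase between them, was lower on both, at -0.82 (edgeR adjusted p = 2.25e-08) and -1.59 on library totals (adjusted p = 3.86e-25). Pgd was at 604, 598, 665 and 679 CPM, against at most 84.5 CPM in untreated libraries, and rose by 3.15 ± 0.18 on the log2 scale (SE; adjusted p = 1.24e-40). On library totals Pgd was at 2.37 (adjusted p = 7.45e-28). G6pdx was at 51.0, 22.5, 31.0 and 19.7 CPM in untreated and 186, 129.8, 133 and 150.5 CPM in poly I:C libraries, without overlap. G6pdx rose by 2.11 ± 0.29 on the log2 scale (SE; adjusted p = 1.05e-10), with 1.34 (adjusted p = 2.85e-05) on library totals. The non-oxidative genes split: Taldo1 was at 599, 637, 603 and 512 CPM and 882, 773, 670.1 and 917 CPM, and rose by 0.35 ± 0.11 on the log2 scale (SE; adjusted p = 0.00443), but this call was lost in DESeq2 (0.0735), and on library totals Taldo1 was called in the opposite direction, at -0.43 (adjusted p = 0.000309). Tkt was at 249.9, 268, 239.5 and 256 CPM and 192, 259.6, 181 and 187 CPM, and fell by 0.43 ± 0.17 on the log2 scale (SE; adjusted p = 0.0241). That call was lost on the scale of the printed levels (0.0994), with no filter on low counts (0.076), without untreated 24 h B (0.0573) or without poly I:C 24 h A (0.0922), C (0.113) or D (0.0979).

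Hif1a (chr12:73901375-73947530, plus strand) was at 56.4, 36.6, 42.3 and 42.7 CPM in untreated and 116, 124, 109 and 132 CPM in poly I:C libraries, without overlap. Hif1a rose by 1.31 ± 0.27 on the log2 scale (SE; adjusted p = 8.35e-06), and the call was lost on library totals (0.0634 at a log2 value of 0.54). P4ha1, a collagen prolyl hydroxylase and HIF-1 target, was at 26.9, 25.4, 39.4 and 26.3 CPM and 63.9, 79.0, 57.0 and 128 CPM, without overlap. P4ha1 rose by 1.36 ± 0.34 on the log2 scale (SE; adjusted p = 0.000225), lost on library totals (0.106 at a log2 value of 0.59). Bnip3, a mitochondrial protein of hypoxia and mitophagy, was at 10.7, 11.3, 33.8 and 26.3 CPM and 5.81, 0, 9.51 and 4.56 CPM, the second of which is 0 counts. The groups did not overlap, but the gap between them, 9.51 to 10.7 CPM, lies at about the level of 3 counts (10.2 CPM at the median depth). Bnip3 fell by 2.00 ± 0.72 on the log2 scale (SE; adjusted p = 0.0117), lost without untreated 24 h C (0.073) or without poly I:C 24 h B (0.0507). On the TMM scale 2 of these 3 genes were thus higher and 1 lower.

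**Figure D3:**
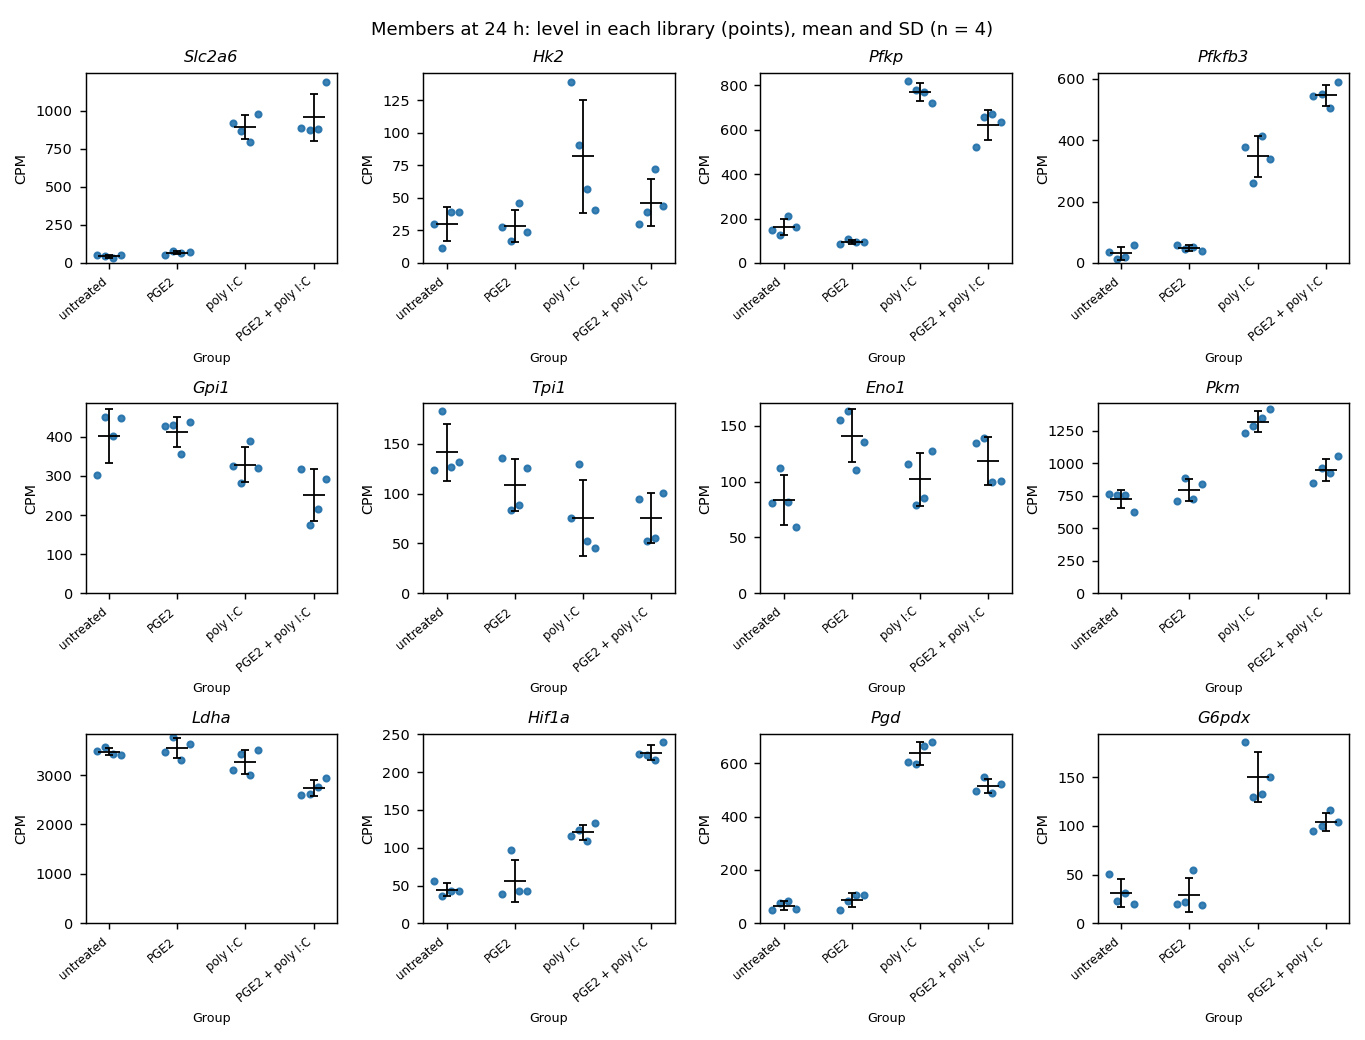
Level (CPM on the TMM scale, linear axis from 0) of 12 genes in each of the 4 libraries of the 4 groups at 24 h, with a bar at the mean and whiskers of 1 SD. Slc2a6 and Pfkp are high in both poly I:C groups, Hif1a and Pfkfb3 are highest with PGE2 and poly I:C together, and Pkm is highest with poly I:C alone on this scale, a rise that is not seen on library totals (a fitted -0.023).

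Cells given PGE2 for 24 h with poly I:C differed from cells given poly I:C alone in 4 of the 19 genes. Hif1a and Pfkfb3 were higher, and Pkm and Ldha lower, where 10.7% of all genes were called, 5.03% higher and 5.65% lower. The TMM factors behind the printed levels were close in the 2 groups (0.611 to 0.616 and 0.616 to 0.634). The 4 genes were called in the same directions on library totals. The median log2 fold change was 0.05 over the 19 genes and -0.01 over all genes. Summed levels of the marker lists also differed between these groups. With both agents the plasmacytoid markers summed to 1112 ± 159 CPM against 699 ± 88.5 with poly I:C alone. Bst2 made up most of both sums (1019.8 ± 151 CPM with both agents), so this difference lay mainly in that gene. The cDC2 markers summed to 60.1 ± 3.57 against 17.7 ± 7.55 CPM, the macrophage and monocyte markers to 478 ± 27.8 against 637 ± 83.6, and the cDC1 markers to 6528 ± 301 against 5571 ± 399.7. The part of other cells in the 4 calls was not tested.

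Hif1a with PGE2 and poly I:C was at 224, 222, 216 and 240.4 CPM. Every one of these libraries lay above every library of poly I:C alone. Hif1a rose by 0.91 ± 0.22 on the log2 scale (SE; adjusted p = 0.0017), a 1.88-fold difference. Pfkfb3 was at 542, 549, 505 and 589 CPM, again without overlap, and rose by 0.66 ± 0.16 on the log2 scale (SE; adjusted p = 0.00116). PGE2 alone at 24 h left these genes uncalled against untreated cells, at 0.38 ± 0.28 (adjusted p = 0.521) and 0.72 ± 0.31 (adjusted p = 0.157). The effect of PGE2 with poly I:C was not shown to differ from that without it: the interaction was 0.53 ± 0.37 (adjusted p = 0.59) for Hif1a and -0.07 ± 0.32 (adjusted p = 0.961) for Pfkfb3.

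Pkm with both agents was at 846, 964, 921 and 1054 CPM, below every library of poly I:C alone. Pkm fell by 0.48 ± 0.10 on the log2 scale (SE; adjusted p = 0.000301). Here the interaction was called: the PGE2 effect on Pkm with poly I:C minus that without was -0.63 ± 0.15 (adjusted p = 0.00279), and PGE2 alone gave 0.15 ± 0.10 (adjusted p = 0.454). It was the 1 gene of the 19 called for the interaction, where 3.28% of all genes were, and the call was lost with no filter on low counts (0.116). Ldha was at 2602, 2625, 2759 and 2949 CPM, below every library of poly I:C alone, and fell by 0.25 ± 0.08 on the log2 scale (SE; adjusted p = 0.0265). That call was lost with no filter on low counts (0.329), without poly I:C 24 h B (0.137) or D (0.0891) or without PGE2 + poly I:C 24 h A (0.0602) or B (0.0744), and the interaction was -0.32 ± 0.11 (adjusted p = 0.108).

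Pgd, G6pdx and Pfkp were lower on average with both agents than with poly I:C alone, but not called. Pgd was at 498, 549, 488 and 521 CPM, below every library of poly I:C alone, with a log2 value of -0.31 ± 0.14 (adjusted p = 0.162). G6pdx was at 94.5, 100.3, 117 and 104 CPM, also below, with -0.52 ± 0.26 (adjusted p = 0.225). Pfkp was at 522, 658, 672 and 637 CPM, with -0.31 ± 0.13 (adjusted p = 0.117). Slc2a6 was at 891, 872, 883 and 1190.0 CPM, overlapping poly I:C alone, with 0.11 ± 0.12 (adjusted p = 0.658).

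Against PGE2 alone, the same group had 11 of the 19 genes (57.9%) called, 7 higher and 4 lower, where 64.8% of all genes were called, 30.8% higher and 34% lower. On library totals the split over all genes went from 1622 higher and 1794 lower to 890 and 3085, the median of all genes from -0.11 to -0.88, and the calls among the 19 genes from 7 and 4 to 6 and 9. On the scale of the printed levels they were 8 and 2. Slc2a6 rose by 3.69 ± 0.16 on the log2 scale (SE; adjusted p = 1.39e-53), Pfkfb3 rose by 3.32 ± 0.20 on the log2 scale (SE; adjusted p = 1.50e-36) and Pfkp rose by 2.54 ± 0.16 on the log2 scale (SE; adjusted p = 2.25e-34). Pgd rose by 2.46 ± 0.18 on the log2 scale (SE; adjusted p = 1.77e-29) and G6pdx rose by 1.66 ± 0.32 on the log2 scale (SE; adjusted p = 2.13e-06). Hif1a rose by 1.84 ± 0.23 on the log2 scale (SE; adjusted p = 2.66e-12). These 6 genes were called higher on library totals too. The libraries with both agents serve in this comparison and the one before, and the values are set side by side only. The smaller rise of Taldo1, 0.29 ± 0.11 (adjusted p = 0.0182), was lost in DESeq2 (0.127) or with only the groups compared in the fit (0.0734), and on library totals Taldo1 was called in the opposite direction, at -0.49 (adjusted p = 3.76e-05).

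The genes that fell against PGE2 alone were Gpi1, Ldha, Tkt and Tpi1. Gpi1 was at 427, 430.2, 355 and 439 CPM with PGE2 and 318, 174, 216 and 292 CPM with both agents, without overlap, and fell by 0.86 ± 0.15 on the log2 scale (SE; adjusted p = 2.76e-07). Ldha was at 3471, 3777, 3298 and 3629.9 CPM with PGE2, above every library with both agents, and fell by 0.52 ± 0.08 on the log2 scale (SE; adjusted p = 6.48e-09). Tkt was at 216, 272, 288 and 309 CPM and 204, 231, 233 and 216 CPM, with the value -0.42 ± 0.17 (adjusted p = 0.0215), lost on the scale of the printed levels (0.135 at a log2 value of -0.28), with no filter on low counts (0.143), without PGE2 24 h C (0.0654) or D (0.0744) or without PGE2 + poly I:C 24 h A (0.1), B (0.0605), C (0.0591) or D (0.089). Tpi1 was at 136, 83.3, 88.8 and 126 CPM and 94.5, 52.3, 55.5 and 100.2 CPM, with the value -0.63 ± 0.26 (adjusted p = 0.027), lost on the scale of the printed levels (0.0927), with no filter on low counts (0.115), without PGE2 24 h A (0.15) or D (0.0636) or without PGE2 + poly I:C 24 h B (0.187 at a log2 value of -0.42) or C (0.138).

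**Figure D4:**
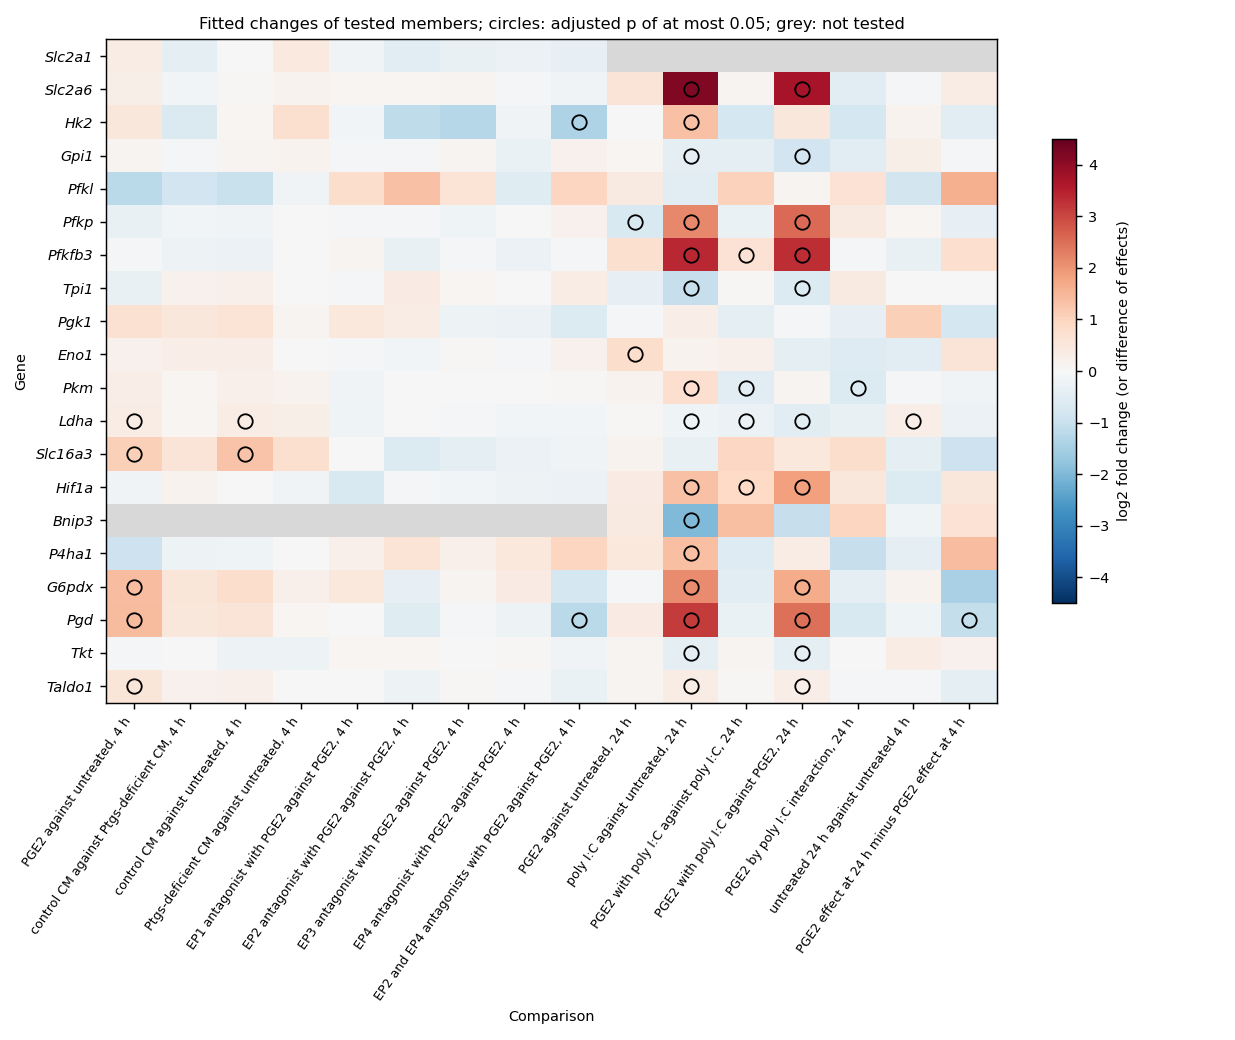
Fitted log2 change (colour, from -4.5 to 4.5) of the 20 genes tested in at least 1 fit, in rows, for the 16 comparisons, in columns, all with TMM scaling. Circles mark an adjusted p of at most 0.05 and grey cells were not tested. Circles are few in the columns of single antagonists (0) and many in the columns of poly I:C (15) and PGE2 with poly I:C against PGE2 (11), where on library totals Taldo1 has the opposite sign (both columns) and Pkm is near 0 (poly I:C).

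Of the 20 tested genes, Slc2a1, Pfkl and Pgk1 were called in no comparison with TMM scaling. Over the 13 groups their means ran from 17.1 to 40.5 CPM for Slc2a1, from 13.6 to 43.7 CPM for Pfkl and from 17.0 to 50.1 CPM for Pgk1. Another 11 genes had a row but too few counts for any fit. The hexokinases Hk1 and Hk3 reached group means of 44.7 CPM, in the group with PGE2 and poly I:C, and 19.3 CPM, with poly I:C alone. The highest group means of the others were 2.33 CPM for the transporter Slc2a3, 5.69 for the muscle phosphofructokinase Pfkm, 15.4 for Pfkfb4, a relative of Pfkfb3, 21.1 for the mutase Pgam1, 8.70 for the lactate carrier Slc16a1, 12.8 for Pdk1, a brake on pyruvate entry, 6.41 for the growth factor Vegfa and 2.62 for Egln3, an oxygen-sensing hydroxylase. These are levels of 3′ end counts, and no difference is read from them.

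Gapdh, an enzyme of central glycolysis that cells usually express strongly, had 43 counts over all 52 libraries, and its highest group mean was 7.44 CPM. Ldha had 49194 counts, Pkm 13610 and Taldo1 11324. The reference holds near-identical copies of some of these genes, of which Gapdh-ps14 had 21 counts, Ldha-ps2 11, Ldha-ps 1, Eno1b 25, Aldoa-ps4 136, Aldoart1 60, Aldoart2 34 and Pgam1-ps2 0. The sources used here do not give how reads with several matches were counted, so values of Gapdh, Pgam1, Eno1, Ldha, Pkm, Tpi1 and Pgk1 are uncertain to that extent. In GENCODE on GRCm38, exons on the other strand overlap those of the called genes Gpi1 (Gm26762), Pfkp (Pitrm1), Tpi1 (Spsb2), Hif1a (Gm15283), Bnip3 (Gm45507) and G6pdx (Ikbkg). Among genes not called they overlap those of Gapdh (Iffo1), Slc2a1 (Gm12868), Hk1 (Hk1os), Hk3 (Unc5a) and Pfkm (Senp1). Whether counting used strand is not given either. On the same strand, exons overlap those of Hif1a (Gm49321), Pkm (Gm49759), Tkt (Mir3076) and the untested Pfkm (Gm26513), which counting by strand would not separate. The counts were made with Ensembl release 75, and whether it holds the same overlaps was not checked.

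A second list held 103 other genes of glycolysis, pyruvate entry, glycogen, the pentose phosphate pathway and HIF signalling, of which 92 had a row and 36 were tested at 4 h, 34 at 24 h and 35 between the times. After 4 h of PGE2, 3 of the 36 were called higher and 1 lower, and after control CM against untreated cells 4 higher and 1 lower. Control CM against Ptgs-deficient CM gave 2 higher and 1 lower, and the group labelled EP2 and EP4 against PGE2 gave 1 higher and 4 lower. Of the 34 at 24 h, 4 were higher and none lower with PGE2, 8 higher and 12 lower with poly I:C, 3 and 2 with both agents against poly I:C, and 9 and 13 with both against PGE2. As shares of the genes tested on this list these were 11.1% with PGE2 at 4 h (all genes 8.57%), 13.9% with control CM against untreated cells (7.56%), 8.33% between the media (3.95%) and 13.9% in the group labelled EP2 and EP4 (9.52%). At 24 h they were 11.8% with PGE2 (7.97%), 58.8% with poly I:C (65%), 14.7% with both against poly I:C (10.7%) and 64.7% with both against PGE2 (64.8%), and the shares with poly I:C against untreated cells and with both against PGE2 were no higher than those of all genes. By edgeR 0 were called in Ptgs-deficient CM against untreated cells and with the EP1, EP2, EP3 or EP4 antagonist, with 4, 0, 1, 2 and 1 at an unadjusted p of at most 0.05.

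Named by the smallest adjusted p in any comparison, the first of these was Bhlhe40, a repressor that HIF-1 induces. Bhlhe40 went from 75.3 ± 14.5 to 182 ± 24.8 CPM with PGE2 at 4 h, and rose by 1.21 ± 0.23 on the log2 scale (SE; adjusted p = 1.58e-05). At 24 h Bhlhe40 rose by 1.82 ± 0.24 on the log2 scale (SE; adjusted p = 2.35e-10) with PGE2 and rose by 4.49 ± 0.18 on the log2 scale (SE; adjusted p = 6.12e-58) with poly I:C. Cited2, which competes with HIF-1 for its coactivators, went the other way at 4 h, from 65.9 ± 13.3 CPM to 18.7 ± 16.8 with PGE2 and 12.9 ± 5.90 with control CM. Cited2 fell by 1.88 ± 0.42 on the log2 scale (SE; adjusted p = 0.00039) with PGE2, and fell by 2.26 ± 0.42 (adjusted p = 4.24e-05) in control CM against Ptgs-deficient CM. With poly I:C Cited2 rose by 4.00 ± 0.19 on the log2 scale (SE; adjusted p = 1.02e-47).

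Gyg, the glycogen primer glycogenin, was at 66.2 ± 10.7 CPM untreated, 122 ± 24.0 with PGE2 and 72.3 ± 15.1 in the group labelled EP2 and EP4. Gyg rose by 0.82 ± 0.25 on the log2 scale (SE; adjusted p = 0.0216) with PGE2 and fell by 0.73 ± 0.23 on the log2 scale (SE; adjusted p = 0.0248) in that group against PGE2. The first call was lost on library totals (0.0635), with no filter on low counts (0.0687), without untreated 4 h C (0.133) or without PGE2 4 h C (0.0514) or D (0.0942), and the second on library totals (0.0504), with no filter on low counts (0.113), without PGE2 4 h C (0.06) or D (0.107) or without PGE2 + EP2 and EP4 antagonists 4 h A (0.111) or C (0.0605). Mpc1, a subunit of the mitochondrial pyruvate carrier, was at 85.2 ± 27.9 CPM with control CM and 37.6 ± 14.1 with Ptgs-deficient CM, and rose by 1.19 ± 0.31 on the log2 scale (SE; adjusted p = 0.00709), a call lost without control CM 4 h B (0.11) or without Ptgs-deficient CM 4 h A (0.107). With poly I:C, Ndrg1, a hypoxia-induced stress gene, rose by 3.02 ± 0.29 on the log2 scale (SE; adjusted p = 6.38e-19), while Tfrc, the transferrin receptor, fell by 3.56 ± 0.64 on the log2 scale (SE; adjusted p = 3.26e-07). Pgls, the lactonase between G6pdx and Pgd, fell by 0.82 ± 0.13 on the log2 scale (SE; adjusted p = 2.25e-08) with poly I:C, and Fam162a, a hypoxia-responsive mitochondrial gene, rose by 1.34 ± 0.18 on the log2 scale (SE; adjusted p = 5.26e-09) in untreated cells between 4 and 24 h. Gyg and Mpc1 had their smallest adjusted p with poly I:C against untreated cells. There Gyg rose by 1.73 (edgeR adjusted p = 1.67e-16) and Mpc1 by 1.68 (edgeR adjusted p = 1.94e-07) on the log2 scale. Each of the poly I:C changes named here kept its direction and its call on library totals.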

How the data were processed

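Bulk 3′ RNA-seq counts of unique molecular identifiers were deposited by the authors as 1 table of 52 libraries, made with the Drop-seq pipeline on GRCm38 with Ensembl release 75, per the labels' protocols. The submitters' processing notes name GRCm38.p6 and DESeq2 1.14.1. Aligner, handling of reads with several matches, and strand: not given in the sources used here. Of 23136 rows 1 was left out as a text entry, and 20 rows with dates as names (0.105% of counts) stayed in. From the counts, edgeR 4.0.16 (R 4.3.3, limma 3.58.1) was run with TMM scaling, filterByExpr and robust glmQLFit and glmQLFTest (two-sided), on the counts of the genes tested, in 1 fit for each time and 1 for comparisons between times. Printed CPM instead use full library totals with TMM factors over all 52 libraries. Standard errors were taken from the fitted log2 fold changes and their tests, and intervals are normal approximations at 95%. DESeq2 1.42.0 was an alternative, beside library totals, no filter, a replicate block, the scale of the printed levels, only the groups compared and each library left out. The scripts were tested on simulated data. Replicate pairs of 1 group differed by more than sampling noise (chi-square per degree of freedom 1.38 to 2.70 over 78 pairs). The genes and lists were chosen with earlier results of these data known. Genes called at least 1 time are given by library, other tested genes by range or fold, untested ones by their highest group mean, and at most 8 companion genes by smallest adjusted p.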

Additional observations from a re-analysis of the deposited data

Results flagged for a closer look

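Among the 17 genes called in at least 1 comparison, 15 of 221 groups of 4 libraries (6.79%) held a library past Dixon's 95% critical value for its gap to the other 3, a limit set so that chance flags about 1 in 20 groups. For Slc2a6 these were the EP2 antagonist group (B at 70.7 CPM, the others 55.6 to 57.7) and PGE2 with poly I:C (D at 1190.0 CPM, the others 872 to 891). Hk2 was at 0 CPM in untreated 4 h A, a library of low depth, against 26.4 to 30.2 in the others. Gpi1 had 4 such groups: Ptgs-deficient CM (C at 419.7 CPM, the others 351 to 357), the EP2 antagonist (A at 418 CPM, the others 308 to 315), the group labelled EP2 and EP4 (C at 488 CPM, the others 371 to 386) and PGE2 at 24 h (C low at 355 CPM, the others 427 to 439). In untreated cells at 24 h, Tpi1 was high in B (183 CPM, the others 124 to 131), Pkm low in D (620.3 CPM, the others 755 to 763) and P4ha1 high in C (39.4 CPM, the others 25.4 to 26.9).

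With PGE2 at 24 h, Hif1a was high in B (97.1 CPM, the others 38.8 to 43.4), Bnip3 low in A (16.6 CPM, the others 29.0 to 30.6) and G6pdx high in C (55.1 CPM, the others 19.3 to 22.2). Tkt was low in EP4 antagonist A, the shallowest library (100.7 CPM, the others 198 to 212), and high in poly I:C B (259.6 CPM, the others 181 to 192).

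A difference between conditions was called for 2 genes. The effect of PGE2 on Pkm differed with and without poly I:C (-0.63 on the log2 scale), and that on Pgd differed between 24 h and 4 h (-1.07), each in an interaction test. The Pkm call was lost under 1 of 21 alternatives, with no filter on low counts, and the Pgd call under 12 of 22.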

How the results depend on the processing

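Of 44 calls among the 32 genes, 20 held under every alternative run and 24 were lost under at least 1. The alternatives without the 2 libraries of lowest total and on the scale of the printed levels were chosen after seeing the data. On library totals Taldo1 was called in the opposite direction with poly I:C (-0.43) and with both agents against PGE2 (-0.49), and Pkm with poly I:C had a fitted value near 0 (-0.023). On the scale of the printed levels poly I:C gave 12 calls in place of 15 and both agents against PGE2 10 in place of 11. TMM and totals place different shares of genes above and below 0, by construction of the scaling.

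For PGE2 at 4 h, 5 calls became 3 with no filter and 3 without the 2 libraries of lowest total, and 2 to 5 with a library left out. For control CM against untreated cells, 2 became 1 on totals, 1 with no filter, 1 without those libraries, and 0 to 2. For the group labelled EP2 and EP4, 2 became 1 with no filter, and 1 to 3. For PGE2 at 24 h, 2 became 1 with no filter, and 1 to 2. The interaction's 1 call became 0 with no filter. The 1 call between untreated times became 0 with no filter, and 0 to 2. The 1 call for the difference of PGE2 effects between times became 0 in DESeq2, 0 on totals, 0 with no filter, and 0 to 2. With a library left out, poly I:C gave 12 to 15, both agents against PGE2 9 to 11, and both against poly I:C 3 to 4. With no filter many more genes share the adjustment. The cause of the other changes was not tested.

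Over all genes, calls for the EP2 antagonist went from 24 to 82 with only its groups fitted and from 24 to 16 in DESeq2, for the EP3 antagonist from 4 to 9 with only its groups fitted, and for Ptgs-deficient CM from 5 to 10 with no filter. With no filter the interaction went from 173 to 81, untreated times from 234 to 151, the difference between times from 235 to 129, and EP3 and EP4 from 4 and 2 to 0. On totals the higher and lower calls went from 140 and 87 to 120 and 121 between the media, from 277 and 158 to 228 and 240 for control CM against untreated cells, from 242 and 306 to 384 and 259 in the group labelled EP2 and EP4, and from 114 and 121 to 176 and 90 for the difference between times.

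With the replicate letter as a block, PGE2 at 4 h again gave 5 calls and poly I:C 15, and none of the 44 calls was lost. Libraries of the same letter showed no shared deviation (correlations -0.17 to 0.07 over 144 pairs at 4 h and -0.02 to 0.06 over 24 pairs at 24 h). Counting noise at these depths also draws such correlations towards 0, so they cannot exclude a shared culture or batch. Letters were not treated as pairs in the main fits. At the median depth 3 counts are 10.2 CPM, which limits what can be said of the untested genes.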
